A study of Mus musculus with 10 samples.

Results

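The genes of cytosolic and mitochondrial chaperones were examined as a list of 40 mouse genes, with the chaperonin CCT, prefoldin, the HSP70 and HSP90 systems, the mitochondrial folding machines and the heat shock regulator Hsf1. Members were found through the platform annotation by gene symbol, and each gene was represented by its probe set with the highest mean signal over all 10 arrays. Of the 40 genes, 37 had a probe set assigned to that gene alone, and all 37 were bright enough to be tested. They stand among 18193 genes named on the array, of which 12251 were tested. Hsp90ab1, Ppid and Hsf1 were not analysed here.

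In all, 5 irf4-/- samples, whose mice had no intact allele of the transcription factor gene Irf4, were compared with 5 irf4+/+ samples from littermates. All mice were 12 weeks old and of the C57BL/6 strain, and all samples were spleen B cells purified by magnetic removal of other cells and cultured for 3 days with IL-4 (20 ng/ml) and an antibody to CD40, so every sample was stimulated and there was no resting group. RNA was hybridised to 1-colour Affymetrix arrays, and values are MAS5 signals on a linear scale. Whether the 5 samples of a genotype are separate mice or separate cultures is not given, so p-values here rest on the spread among the 5 samples, part or all of which may be technical. The comparison asks which transcripts differ between stimulated B cells with and without intact Irf4.

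Chaperones bind unfolded proteins and help them to reach or keep their native shape. CCT is a closed, ring-shaped chamber that folds actin, tubulin and other proteins, which prefoldin hands over to it. HSP70 proteins bind short unfolded stretches in cycles of ATP hydrolysis driven by J-domain proteins and reset by nucleotide exchange factors, and HSP90 finishes many kinases and steroid receptors with the help of its own cochaperones. In mitochondria, HSP70 pulls in newly imported proteins and HSP60 with its lid HSP10 folds them. Lymphocytes that are stimulated to grow and divide make large amounts of new protein and are known to raise many of these transcripts.

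Irf4 itself gave a signal in both genotypes, 2792 ± 128 in irf4-/- and 3761 ± 211 in irf4+/+ arrays (SD, n = 5 each), and was lower in the irf4-/- samples (-0.43 on the log2 scale, SE 0.0536, adjusted p = 5.01e-06). The labels do not place its probes relative to the disruption, so this signal does not check the genotype. Of 7 measured B cell markers none was dim and all 7 were higher in irf4-/- samples, with summed signals of 44407 to 48654 in irf4-/- and 24226 to 26738 in irf4+/+ arrays. Markers of other cells moved as well. All 12 measured natural killer cell markers were higher, with summed signals of 11839 to 16328 in irf4-/- and 1402 to 1653 in irf4+/+ arrays. Most of the sum came from Gzma (8256 in irf4-/- and 819 in irf4+/+ arrays) and Gzmb (4868 in irf4-/- and 362 in irf4+/+ arrays). Ncr1, a defining marker, averaged 45.7 in irf4-/- and 16.2 in irf4+/+ arrays. It and Nkg7, Klrd1, Tbx21, Cd244a, Klrk1 and Klra8 averaged under 26.1, the 40th percentile of all values, in irf4+/+ arrays. Of 13 measured macrophage markers 8 were tested, of which 5 were higher and 3 not called. Their list had summed signals of 1746 to 2288 in irf4-/- and 485 to 554 in irf4+/+ arrays. The higher ones were Adgre1, Cd68, Chil3, Lyz1 and Lyz2, and those not called were Csf1r, Fcgr1 and Mrc1. Chil3 averaged 365 in irf4-/- and 4.66 in irf4+/+ arrays, and Lyz1 249 in irf4-/- and 6.72 in irf4+/+ arrays. Adgre1 averaged 611 in irf4-/- and 153 in irf4+/+ arrays, while C1qa and Marco were near the array's floor in both genotypes. Of 4 tested dendritic cell markers Flt3 and Batf3 were lower and Itgax and Zbtb46 higher, and the list summed to 699 to 755.5 in irf4-/- and 1000 to 1154 in irf4+/+ arrays. Flt3 averaged 53.2 in irf4-/- and 417 in irf4+/+ arrays. Granulocyte markers summed to 641 to 1075 in irf4-/- and 130.3 to 209.8 in irf4+/+ arrays, with 3 of 5 tested higher. T cell markers summed to 200.8 to 249.7 in irf4-/- and 115.3 to 218 in irf4+/+ arrays. Of 2 tested, Cd5 was higher (69.7 in irf4-/- and 25.9 in irf4+/+ arrays) and Cd8a was not called. The CD3 chain genes Cd3d, Cd3e and Cd3g, among others, were too dim to be tested. The 18S ribosomal RNA control averaged 207.1 ± 66.1 in irf4-/- and 69.0 ± 20.2 in irf4+/+ arrays (SD, n = 5 each; exact two-sided permutation p = 0.00794, the smallest that 5 against 5 can give; adjusted p = 0.0317 over 4 array measures). Signals from the 3′ end divided by those from the 5′ end, which reflect RNA integrity, averaged 1.10 ± 0.0227 in irf4-/- and 1.15 ± 0.0259 in irf4+/+ arrays for Actb (adjusted p = 0.0476 by the same exact permutation test) and 0.859 ± 0.0404 in irf4-/- and 0.856 ± 0.0269 in irf4+/+ arrays for Gapdh (adjusted p = 0.873 by that permutation test). The part of these shifts in the results below was not tested, and in bulk samples fewer cells of a type and less RNA per cell cannot be told apart.

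Most chaperone transcripts were lower in irf4-/- samples, by modest amounts. At an adjusted p under 0.05 in limma over all tested genes, 26 of the 37 genes fell, 4 rose and 7 were not called. Among all 12251 tested genes 47.2% were called, 23.9% lower and 23.4% higher. The median log2 fold change of the 37 genes was -0.29, against 0.00 over all tested genes, with a range of -1.08 for Fkbp4 to 1.05 for Dnajc7. In 21 genes every irf4-/- array lay below every irf4+/+ array, which was so for 18.3% of all tested genes, and in 2 genes every irf4-/- array lay above (17.4% of all). Falls of at least 1.5-fold were called for 7 genes (8.4% of all tested genes) and rises of that size for 2 (11.4%). Leaving out any single array gave 25 or 26 genes called lower and 4 called higher.

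**Figure D1:**
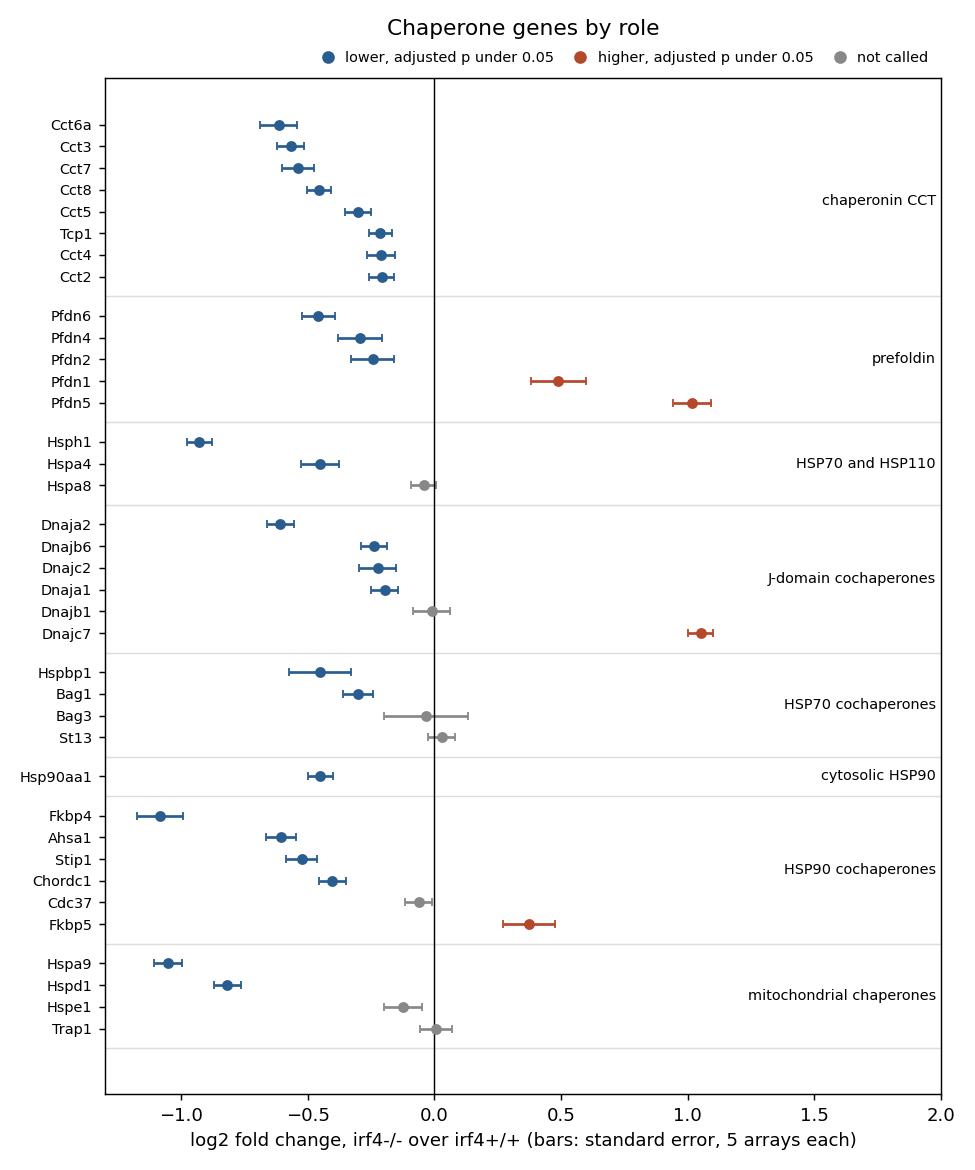
Log2 fold change of irf4-/- over irf4+/+ samples for the 37 tested chaperone genes, grouped by role, with standard errors as bars (5 arrays per genotype) and colour for the call at adjusted p under 0.05. All 8 CCT subunits lie left of 0, while Pfdn5, Dnajc7, Pfdn1 and Fkbp5 lie to the right.

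**Figure D2:**
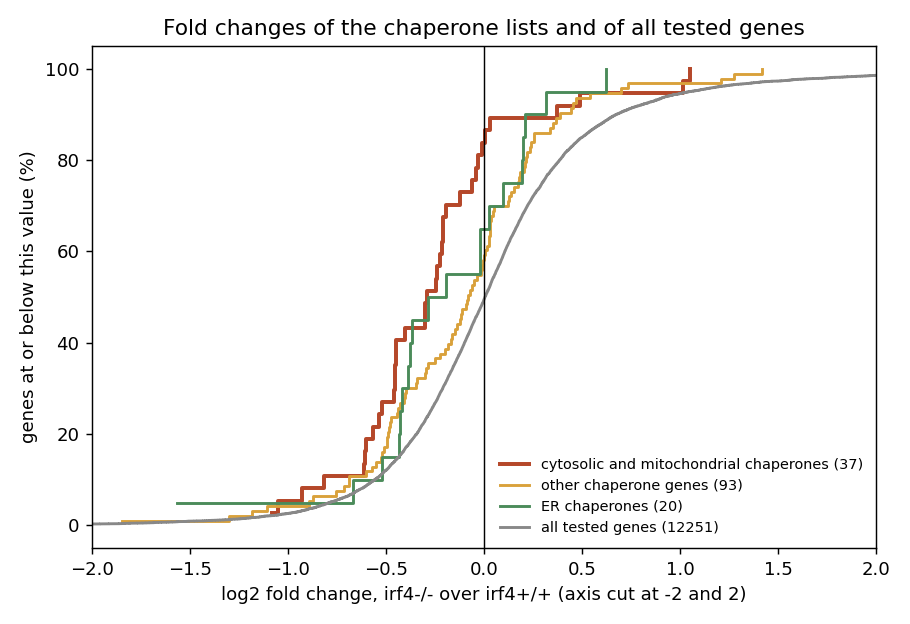
Cumulative share of genes, in percent, against the log2 fold change of irf4-/- over irf4+/+ samples, for the 37 chaperone genes, 93 other chaperone genes, 20 ER chaperones and all 12251 tested genes. The curve of the 37 genes crosses its median at -0.29 and that of all tested genes at 0.00.

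Some of these genes carry a heat shock element, the repeated GAA motif bound by heat shock factors, near their start. The motif was searched as GAA-NN-TTC-NN-GAA and, on the other strand, TTC-NN-GAA-NN-TTC, in windows of 300 bases (250 before the start and 50 from it) taken from RefSeq on build GRCm38.p6. Windows were matched for 30 members, and not for Cct4, Dnajc2, Hsf1, Hsp90aa1, Hsp90ab1, Hspa8, Hspa9, Pfdn1, Ppid and St13. The motif was present in 7 of the 41 windows of these members, belonging to Chordc1, Dnajb6, Hspd1, Hspe1 and Hsph1, against 0.603% of all 32851 windows. Overlapping windows were counted separately, among the members and among all windows. The Dnajb6 windows with the motif share the same site, as do those of Hsph1. The Hspd1 and Hspe1 windows also share a site, so the distinct sites were fewer than 7. Of these 5 genes 4 were called lower, as were 26 of the 37 tested members. The stretches around the motif are shown because Hspd1 and Hspe1, which face each other across one of them, differed in their calls. Capitals mark the bases of the motif, including overlapping copies, and each stretch reads 5′ to 3′ on the strand named.
Hspd1 and Hspe1, chr1:55087933-55088147, plus strand, the 215 bases between the start of Hspe1 and the nearer start of Hspd1: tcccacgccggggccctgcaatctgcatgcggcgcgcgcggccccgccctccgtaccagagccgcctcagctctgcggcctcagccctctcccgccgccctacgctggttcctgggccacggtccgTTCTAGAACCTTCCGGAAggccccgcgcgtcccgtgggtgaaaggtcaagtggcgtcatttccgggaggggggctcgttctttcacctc
Chordc1, chr9:18292260-18292289, plus strand: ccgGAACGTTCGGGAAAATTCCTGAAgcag
Dnajb6, chr5:29735844-29735873, plus strand: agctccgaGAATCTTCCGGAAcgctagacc
Hsph1, chr5:149636279-149636308, minus strand: gctgcagaTTCTGGAAAGTTCtcctcagta
The Hspd1 and Hspe1 stretch held 2 overlapping copies, which began 144 and 139 bases before the Hspd1 start and 89 and 84 bases before that of Hspe1. Chordc1 held 3 overlapping copies. The E-box CACGTG, which reads the same on both strands, was in 4 of the 41 windows, those of Fkbp5, Hspd1 and Hsph1, and in 7.15% of all windows. The Hsph1 windows that held it overlap and share the same E-box. A match describes the letters and does not show that a factor binds there.

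All 8 subunits of CCT fell, where 23.9% of all tested genes were called lower. Their median log2 fold change was -0.38, with a range of -0.61 to -0.21. Each CCT subunit is a separate gene and takes a fixed place in the ring. In every one of the 8 genes the irf4-/- arrays lay below all irf4+/+ arrays, which was so for 18.3% of all tested genes. For Cct6a the signal was 5042, 4839.5, 4955, 4474 and 5015 in irf4-/- arrays 1 to 5, against 9040.1, 7219, 7521, 7167 and 6504 in irf4+/+ arrays 1 to 5, and it fell 1.53-fold (log2 fold change -0.61, SE 0.0722, adjusted p = 2.49e-06). The irf4-/- arrays differed little among themselves, while irf4+/+ array 1 was the brightest of its group. Cct3 measured 6845, 6467, 6427, 6222 and 6587 in irf4-/- arrays and 10438, 9327, 10246, 9370.2 and 8916 in irf4+/+ arrays, 1.48-fold lower (-0.57, SE 0.0529, adjusted p = 1.74e-07), with a wide gap between the groups.

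Falls were also called for the other CCT subunits. Cct7 and Cct8 fell 1.45-fold and 1.37-fold (adjusted p = 2.08e-06 and 5.99e-07), and Cct5 1.23-fold (adjusted p = 0.000108). Tcp1, the subunit that gave the complex its name, averaged 7604 ± 277 in irf4-/- and 8815 ± 270.5 in irf4+/+ arrays (SD, n = 5 each), a fall of 1.16-fold (adjusted p = 0.000949). Cct4 and Cct2 fell 1.16-fold and 1.15-fold (adjusted p = 0.00439 and 0.00196). The dimmer Cct7 probe set was not called (-0.19, adjusted p = 0.0757), and the mean of both gave -0.36 (adjusted p = 0.000247). Cct3 had 6 probe sets above the filter, all with a negative log2 fold change and 5 called lower. Cct4 had 7, of which 4 were called lower, and its dimmer probe sets ran from -0.92 to 0.49, the last of these not called (adjusted p = 0.218).

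Prefoldin subunits moved both ways, 2 of the 5 listed ones up and 3 down, against 23.4% higher and 23.9% lower among all tested genes. Pfdn5, the subunit also known as a binding partner of MYC, rose, with 4790.0, 4805, 4720.5, 3755 and 4815 in irf4-/- arrays and 2541, 2182, 2087, 2158 and 2302 in irf4+/+ arrays (2.02-fold, log2 fold change 1.02, SE 0.0740, adjusted p = 9.24e-09). Array 4 was the lowest irf4-/- array and still lay well above all irf4+/+ arrays. Its other probe set above the filter gave 0.94 (SE 0.0784, adjusted p = 5.30e-08). Pfdn1 rose 1.40-fold, with 932, 794, 792, 597 and 797 in irf4-/- arrays and 578, 452, 591, 513 and 631 in irf4+/+ arrays (0.49, SE 0.109, adjusted p = 0.00133), and its groups overlapped because irf4-/- array 4 lay below irf4+/+ array 5.

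Pfdn6, Pfdn4 and Pfdn2 fell. Pfdn6 averaged 2036 ± 181 in irf4-/- and 2794 ± 164 in irf4+/+ arrays (SD, n = 5 each; 1.37-fold, adjusted p = 2.30e-05), without overlap between the groups. Pfdn4 fell 1.23-fold (adjusted p = 0.0102) and Pfdn2 1.18-fold (adjusted p = 0.0274), both with overlap. The Pfdn2 call was lost without irf4-/- array 2 or 4 or irf4+/+ array 1 or 4, with adjusted p of 0.0108 to 0.0760 over the arrays left out. Vbp1, the remaining prefoldin subunit, which is not among the 40 genes and is named here after its value was seen, rose by 0.18 on the log2 scale (SE 0.0539, adjusted p = 0.0106). With Vbp1, 3 prefoldin subunits rose and 3 fell, whereas all 8 CCT subunits fell.

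**Figure D3:**
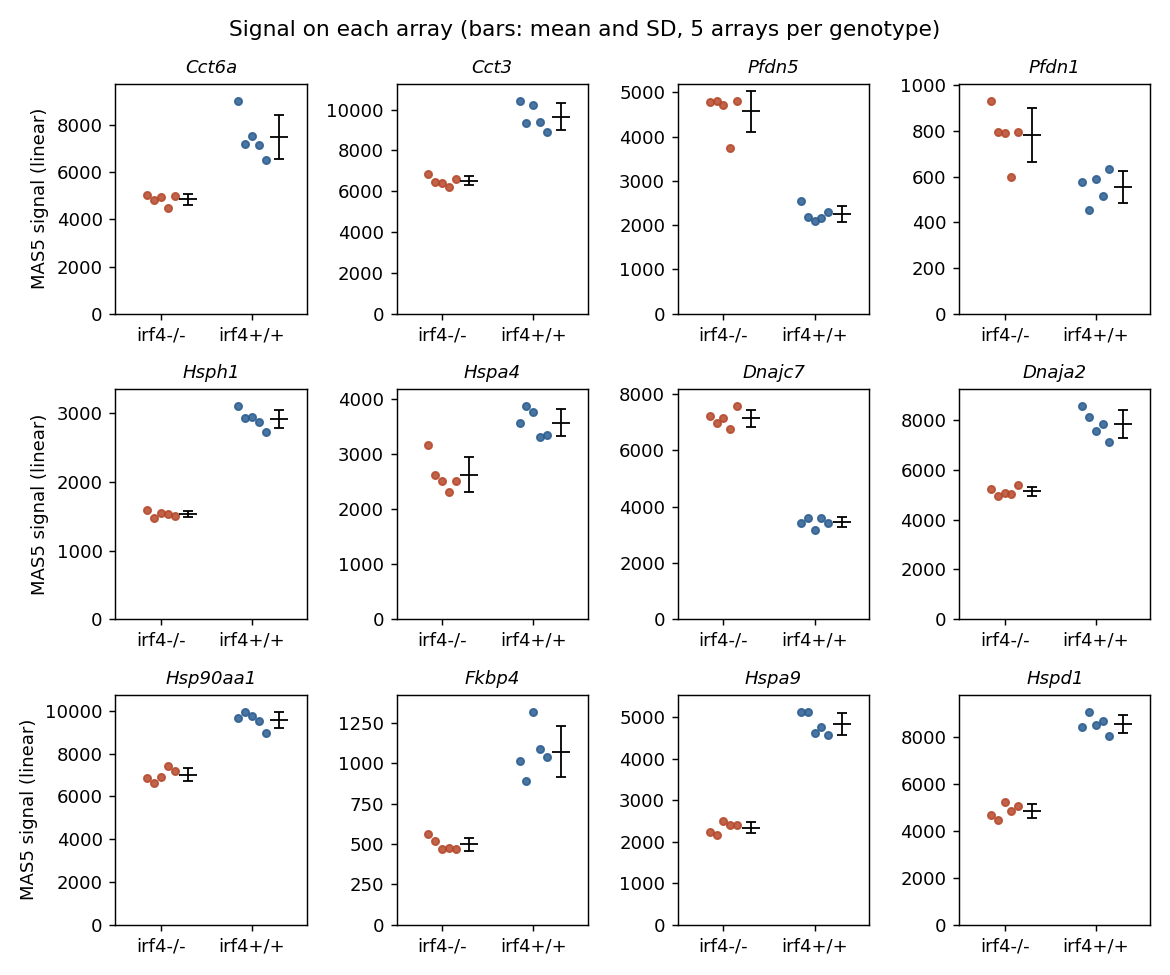
MAS5 signal (linear scale from 0) on every array for 12 chaperone genes, irf4-/- on the left and irf4+/+ on the right of each panel, with the mean and SD of 5 arrays beside the points. Pfdn5 and Dnajc7 sit higher in all irf4-/- arrays, Pfdn1 overlaps between the genotypes, and the other 9 genes sit lower in all irf4-/- arrays.

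In the HSP70 system 8 of 13 genes fell, 1 rose and 4 were not called, with a median of -0.22. The shares over all tested genes were 23.9% lower and 23.4% higher. Hsph1 is an HSP110 protein that acts as a nucleotide exchange factor for HSP70. Its signal was 1587, 1474, 1552, 1534 and 1498 in irf4-/- arrays and 3105, 2935, 2949, 2867 and 2727 in irf4+/+ arrays, 1.90-fold lower (-0.93, SE 0.0503, adjusted p = 2.51e-10). The 2 groups were tight and far apart, and the dimmer of its 2 probe sets gave -0.94 (adjusted p = 1.38e-06). The related Hspa4 measured 3154, 2621, 2505, 2306 and 2506 in irf4-/- arrays and 3559, 3864, 3755, 3313 and 3348 in irf4+/+ arrays (1.37-fold lower, -0.45, SE 0.0749, adjusted p = 9.83e-05). Its highest irf4-/- array, array 1, lay just below the lowest irf4+/+ array. The 3 dimmer Hspa4 probe sets were not called and ran from -0.02 to 0.08, and averaged over all 4 Hspa4 was not called (-0.10, adjusted p = 0.235).

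Hspa8, the constitutive cytosolic HSP70, was not called on its brightest probe set. It averaged 16296 ± 835 in irf4-/- and 16765 ± 641 in irf4+/+ arrays (SD, n = 5 each), and differed by -0.04 on the log2 scale (SE 0.0488, adjusted p = 0.527). Of its 3 other probe sets 2 were called lower, at -0.13 (adjusted p = 0.0347) and -0.67 (adjusted p = 4.94e-05), and the mean of the 4 gave -0.22 (adjusted p = 0.000553). The brightest one carries the suffix of probe sets that can bind related transcripts, as does the one at -0.13. Without such probe sets Hspa8 gave -0.04 (adjusted p = 0.752), from one at 4583 in irf4-/- and 4696 in irf4+/+ arrays. The probe set at -0.67 was dim, at 108 in irf4-/- and 177 in irf4+/+ arrays, but had equal weight in the mean. Calls thus differed between the probe sets, and the level of Hspa8 is uncertain here.

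J-domain proteins bring clients to HSP70 and start its ATP hydrolysis, and 4 of the 6 fell, 1 rose and 1 was not called. Over all tested genes 23.9% were called lower and 23.4% higher. Dnajc7, which binds both HSP70 and HSP90, had the highest value of the 37 genes on the brightest probe sets. It measured 7238, 6964, 7161, 6776 and 7572 in irf4-/- arrays and 3431, 3595, 3186, 3603 and 3412 in irf4+/+ arrays, 2.07-fold higher (1.05, SE 0.0504, adjusted p = 6.20e-11). The lowest irf4-/- array was far above the highest irf4+/+ array, but a single probe set represents the gene. Dnaja2 moved the other way, with 5226, 4961, 5070.1, 5031 and 5392 in irf4-/- arrays and 8566, 8141, 7572, 7839.8 and 7121 in irf4+/+ arrays (1.52-fold lower, -0.61, SE 0.0537, adjusted p = 9.17e-08), and all 4 of its probe sets were called lower.

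Smaller falls were called for the remaining J-domain genes other than Dnajb1. Dnajb6, known for holding back protein aggregates, fell 1.18-fold (adjusted p = 0.00125), Dnajc2, which works at the ribosome, 1.17-fold (adjusted p = 0.0167) and Dnaja1 1.15-fold (adjusted p = 0.00649). Averaging its probe sets ended the Dnaja1 call (-0.10, adjusted p = 0.163), and leaving out probe sets that can bind several transcripts ended that of Dnajc2 (-0.11, adjusted p = 0.431). Dnajb1, a stress-inducible partner of HSP70, was not called on its brighter probe set (-0.01, SE 0.0724, adjusted p = 0.924) and was lower on the other one (-0.21, SE 0.0578, adjusted p = 0.00768).

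Of the other HSP70 cochaperones, both called genes fell. Hspbp1, an exchange factor, measured 321, 225, 282, 249 and 322 in irf4-/- arrays and 319, 354, 426, 347 and 487 in irf4+/+ arrays (1.37-fold lower, -0.45, SE 0.122, adjusted p = 0.00578). Its groups overlapped slightly, since irf4-/- arrays 1 and 5 lay above irf4+/+ array 1. Bag1, an exchange factor that links HSP70 to the proteasome, measured 1258, 1145, 1184, 1073 and 1088 in irf4-/- arrays and 1459, 1334, 1494, 1402 and 1401 in irf4+/+ arrays (1.23-fold lower, -0.30, SE 0.0585, adjusted p = 0.000415), with no overlap. St13, which steadies the client-bound form of HSP70, was not called on its brightest probe set (0.03, SE 0.0520, adjusted p = 0.695) and was lower on another (-0.32, SE 0.0512, adjusted p = 7.82e-05). The stress-inducible Bag3 was weakly measured at 60.8 ± 9.72 in irf4-/- and 62.2 ± 8.95 in irf4+/+ arrays (SD, n = 5 each) and was not called (-0.03, SE 0.165, adjusted p = 0.897).

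In the HSP90 system 5 of 7 tested genes fell, 1 rose and 1 was not called, with a median of -0.45. The shares over all tested genes were 23.9% lower and 23.4% higher. Hsp90aa1, the stress-responsive cytosolic HSP90, measured 6874, 6617, 6926, 7436 and 7193 in irf4-/- arrays and 9654, 9956, 9775, 9511 and 8968 in irf4+/+ arrays. It fell 1.37-fold (-0.45, SE 0.0483, adjusted p = 9.08e-07) with no overlap, and 2 further bright probe sets gave -0.58 and -0.63 (adjusted p = 9.79e-08 and 2.45e-08). Fkbp4, an immunophilin of steroid receptor complexes, had the most negative value of the 37 genes on the brightest probe sets. Its signal was 563, 516, 469, 473 and 469 in irf4-/- arrays and 1016, 889.8, 1319, 1089.8 and 1041 in irf4+/+ arrays (2.12-fold lower, -1.08, SE 0.0908, adjusted p = 4.93e-08). Its close relative Fkbp5, which is known to counter Fkbp4 in those complexes, rose, with 420.3, 452, 516, 494 and 418 in irf4-/- arrays and 295, 330.0, 453, 340.2 and 362 in irf4+/+ arrays (1.29-fold, 0.37, SE 0.103, adjusted p = 0.00653). The Fkbp5 groups overlapped through irf4+/+ array 3, whereas those of Fkbp4 were clearly apart. A dim Fkbp4 probe set, at 53.9 in irf4-/- and 67.7 in irf4+/+ arrays, was not called (-0.29, adjusted p = 0.155). The mean of both Fkbp4 probe sets gave -0.69 (adjusted p = 1.62e-06). Taken the same way, Fkbp4 came behind Hsph1, Hspa9, Hspd1 and, narrowly, Dnaja2, though Hspd1 has only 1 probe set.

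Other cochaperones of HSP90 mostly fell. Ahsa1, the activator of its ATPase, measured 1929, 1721, 1809, 1741 and 1998 in irf4-/- arrays and 3074, 2739, 2738, 2667 and 2786 in irf4+/+ arrays (1.52-fold lower, -0.61, SE 0.0581, adjusted p = 2.47e-07). A dimmer Ahsa1 probe set was not called (0.000143, adjusted p = 0.999), and the mean of both gave -0.30 (adjusted p = 0.00132). Stip1, the bridge that passes clients from HSP70 to HSP90, averaged 1229 ± 79.3 in irf4-/- and 1769.9 ± 109 in irf4+/+ arrays (SD, n = 5 each; 1.44-fold lower, adjusted p = 2.42e-06). Both genes, like Chordc1, a further HSP90-binding protein, had no overlap between the genotypes. Chordc1 averaged 1999.7 ± 117 in irf4-/- and 2644 ± 118 in irf4+/+ arrays (1.32-fold lower, adjusted p = 1.23e-05). Cdc37, which brings kinases to HSP90, was not called, at 2296 ± 71.4 in irf4-/- and 2399 ± 132 in irf4+/+ arrays (SD, n = 5 each; -0.06, SE 0.0519, adjusted p = 0.361).

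Among the mitochondrial chaperones Hspa9 and Hspd1 fell strongly, and Hspe1 and Trap1 were not called. Hspa9, the mitochondrial HSP70, measured 2228, 2172, 2493, 2398 and 2396 in irf4-/- arrays and 5123, 5138, 4634, 4778 and 4567 in irf4+/+ arrays, 2.07-fold lower (-1.05, SE 0.0554, adjusted p = 1.81e-10). Of its 5 probe sets 4 were called lower, from -1.33 to -0.98, and the fifth was dim and not called. Hspd1, the HSP60 chamber, measured 4661, 4462, 5224, 4865 and 5066 in irf4-/- arrays and 8436, 9088, 8502, 8674 and 8067 in irf4+/+ arrays (1.76-fold lower, -0.82, SE 0.0533, adjusted p = 2.34e-09). For both genes the irf4-/- arrays formed a narrow band well below the irf4+/+ arrays. Trap1, the mitochondrial HSP90, averaged 959 ± 85.8 in irf4-/- and 952 ± 17.2 in irf4+/+ arrays (SD, n = 5 each; 0.01, SE 0.0644, adjusted p = 0.948).

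Hspe1 encodes HSP10, the lid of the HSP60 chamber, and its gene lies head to head with Hspd1 across the 215 bases printed above. RefSeq lists a further Hspd1 start, beyond that of Hspe1. The Hspe1 signal was 7719.6, 7583, 6544, 5733 and 7454 in irf4-/- arrays and 8377, 7022, 7538, 7674 and 7384 in irf4+/+ arrays, a difference of -0.12 on the log2 scale (SE 0.0766, adjusted p = 0.209). The groups overlapped, and irf4-/- arrays 3 and 4 were the lowest. Its other probe set gave 0.04 (SE 0.0731, adjusted p = 0.718). The brighter Hspe1 probe set carries a suffix of probe sets that can bind related transcripts, and a single probe set represents Hspd1. Within each array the log2 difference Hspd1 minus Hspe1, set to 0 at the irf4+/+ mean, was -0.94 to -0.41 in irf4-/- and -0.16 to 0.20 in irf4+/+ arrays for the brighter Hspe1 probe set, and -1.01 to -0.62 in irf4-/- and -0.16 to 0.18 in irf4+/+ arrays for the other. The irf4-/- means were -0.69 ± 0.236 and -0.86 ± 0.183 (SD, n = 5). The pair was singled out after its values were seen, so these differences are a description and carry no test.

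**Figure D4:**
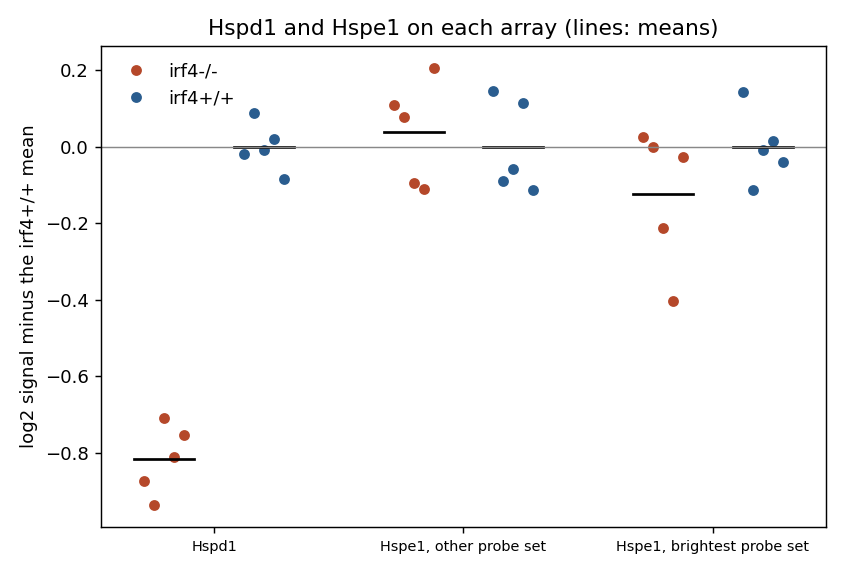
Log2 signal of Hspd1 and of both Hspe1 probe sets on each array, relative to the irf4+/+ mean of that probe set, with irf4-/- points left of irf4+/+ points and lines at the means. Hspd1 lies lower in all irf4-/- arrays, while both Hspe1 probe sets overlap between the genotypes.

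Probe sets of the same gene agreed in direction wherever they were called. Beside the 37 brightest probe sets, 49 others of 23 genes passed the filter. Of 38 belonging to genes called lower, 21 were also called lower and 17 were not called, where 21.4% of all tested probe sets were called lower and 21.1% higher. Fkbp5 and Pfdn5 each had 1 further probe set, called higher for Pfdn5 and not called for Fkbp5 (0.17, adjusted p = 0.376). Of 9 belonging to genes not called, 4 were called lower, those of Hspa8, Dnajb1 and St13 given above.

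**Figure D5:**
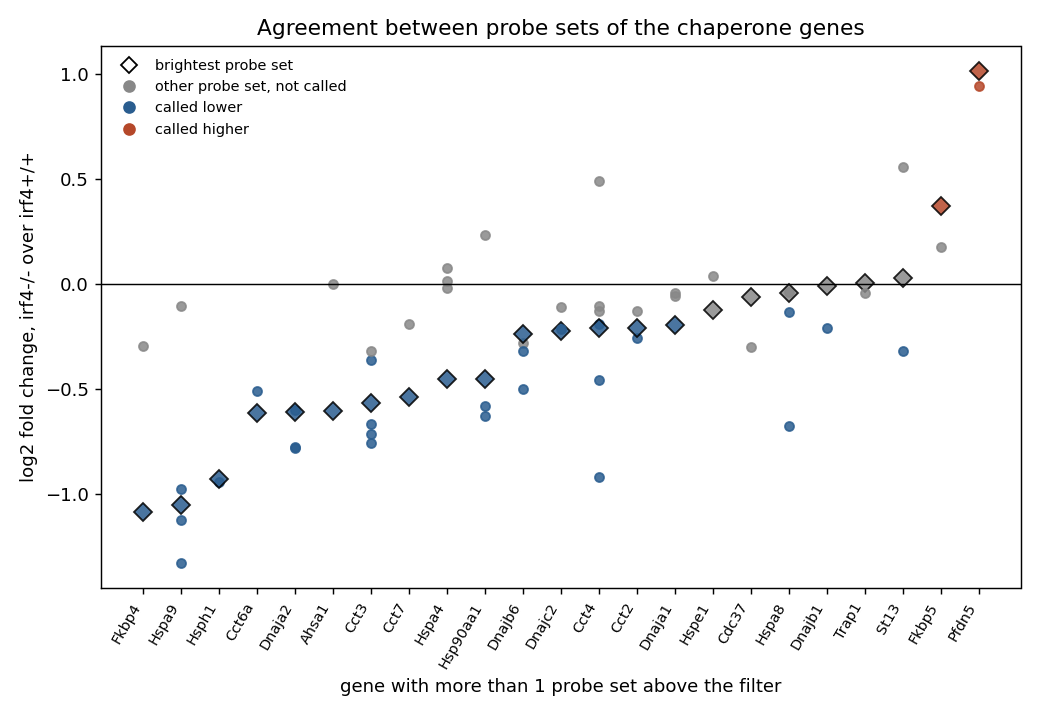
Log2 fold change of irf4-/- over irf4+/+ samples for every probe set above the filter of the 23 genes with more than 1, with the brightest probe set of a gene as a diamond and colour for the call. No gene has probe sets called in opposite directions, and the widest spread is that of Cct4.

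A list of 100 other chaperone genes and related factors, proteases among them, had 93 genes tested and a median nearer to 0. In it 33 genes fell, 21 rose and 39 were not called, with a median of -0.08, against the same 23.9% lower and 23.4% higher among all tested genes. The other HSP90 cochaperones (10 of 19 fell, 4 rose, median -0.40) and the other mitochondrial chaperones and proteases (9 of 14 fell, 2 rose, median -0.39) were mostly lower. Ruvbl2 and Ruvbl1, ATPases that work with HSP90 in assembling large complexes, both fell. Ruvbl2 averaged 1053 ± 57.7 in irf4-/- and 2606 ± 196 in irf4+/+ arrays (SD, n = 5 each; 2.46-fold lower, adjusted p = 5.40e-11) and Ruvbl1 618 ± 17.3 in irf4-/- and 1157 ± 62.3 in irf4+/+ arrays (1.86-fold lower, adjusted p = 1.84e-09). Lonp1, a protease of the mitochondrial matrix, averaged 526 ± 30.1 in irf4-/- and 1141 ± 53.9 in irf4+/+ arrays (2.15-fold lower, adjusted p = 3.05e-10). These 3 had the smallest p-values among the falls, and none overlapped between the genotypes.

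Prefoldin-like and tubulin-folding genes, which include Vbp1, had 1 of 14 lower and 5 higher (median 0.03). Further HSP70, J-domain and exchange factors had 12 of 34 lower and 8 higher (median -0.07). Small heat shock proteins with the HSF family had 1 of 12 lower and 2 higher (median -0.06). Among all tested genes 23.9% were called lower and 23.4% higher. The smallest p-values among the rises were those of Hspb11, which is also known as a component of intraflagellar transport, with 529.6 ± 56.7 in irf4-/- and 194 ± 30.1 in irf4+/+ arrays (2.67-fold, adjusted p = 1.65e-08), of Hscb, a J-domain protein of iron-sulphur cluster assembly, with 1023 ± 147 in irf4-/- and 610.1 ± 63.4 in irf4+/+ arrays (1.66-fold, adjusted p = 8.67e-06), and of Dnajc17, with 782 ± 230.0 in irf4-/- and 317 ± 96.4 in irf4+/+ arrays (2.42-fold, adjusted p = 4.50e-05; SD, n = 5 each). Of 20 ER chaperones 10 fell and 5 rose, with a median of -0.24, against the same 23.9% lower and 23.4% higher among all tested genes. The oxidoreductase Txndc5 fell 2.96-fold (adjusted p = 1.21e-10), and Hsp90b1, the HSP90 of the ER, fell 1.59-fold with 4902 ± 175 in irf4-/- and 7804 ± 285 in irf4+/+ arrays (SD, n = 5 each; adjusted p = 4.98e-09). Across the tested HSP90 genes, log2 fold changes were thus -0.67 for Hsp90b1 in the ER, -0.45 for Hsp90aa1 in the cytosol and 0.01 for Trap1 in mitochondria. The Trap1 value was not called, and other bright probe sets of Hsp90aa1 gave -0.58 and -0.63. Hsp90ab1, also cytosolic, was not analysed here. The differences between these lists were not tested.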

How the data were processed

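RNA from spleen B cells of 5 irf4-/- and 5 irf4+/+ samples was hybridised to 1-colour arrays. The deposited values are MAS5 signal intensity per probe set, per the submitters' processing notes, already scaled by the authors: the mean after trimming 2% at each end was 250 on every array. No genome build is used for these values. Groups were taken from the sample labels.

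Of 45101 probe sets, 64 controls were left out, and 34945 were assigned to 1 gene by the platform annotation, 932 to several and 9160 to none. Gene IDs of 34741 matched RefSeq (GRCm38.p6). A pseudocount of 7.9, the 20th percentile over the arrays, was added before taking log2, which understates changes of dim genes. Probe sets with a mean under the 40th percentile of probe set means were left out, and each gene was represented by its brightest probe set. In all, 12251 genes were tested and 5942 were too dim. The genotypes were compared with limma 3.58.1 (R 4.3.3, moderated variances with an intensity trend) and Benjamini-Hochberg adjustment over all tested genes, with a threshold of 0.05. Probe set calls were fitted the same way over 22533 probe sets. Levels are not compared between probe sets. Suffixes marking probe sets that can bind related transcripts are common among these genes, so pseudogene or paralog signal may be included.

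Median SDs within a genotype were 0.157 (irf4-/-) and 0.167 (irf4+/+) on the log2 scale. The fit was tested on data with known changes. The number of arrays limits the precision. Array measures were compared by exact permutation (two-sided), which cannot give a p below 0.00794 here.

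The members, lists and roles were chosen with earlier results of these data known. All members were accounted for. Values on every array were given for the 2 called members of each role group with the largest absolute log2 fold change, for called members opposite to most of them and for members with probe sets of opposite calls. From the other chaperone genes the 3 called with the smallest p in each direction were named, and from the ER chaperones the 2 with the smallest p. Hspe1 and Vbp1 were added after their values were seen. Alternatives covered the pseudocount, filter, scaling, variance model, probe set rule, a replicate block and each array left out.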

Additional observations from a re-analysis of the deposited data

Results flagged for a closer look

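In 2 chaperone genes 1 array lay far from the other 4 of its genotype by Dixon's test. The Pfdn5 signal of irf4-/- replicate 4 was 3755.2, against 4720.5 to 4815 on the other irf4-/- arrays. The Dnajb6 signal of irf4+/+ replicate 1 was 4004.7, against 3468.5 to 3596 on the other irf4+/+ arrays. Of 74 groups tested (37 genes in both genotypes) 2 stood out, or 2.70%, where chance marks about 1 in 20. Both genes kept their call when each array was left out in turn.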

How the results depend on the processing

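Under 22 alternatives, 10 of them leaving out 1 array each, 25 or 26 chaperone genes were called lower and 4 higher, their median log2 fold change was -0.33 to -0.24, 5431 to 6005 genes were called in all, and 28 to 34 other chaperone genes were called lower and 15 to 22 higher. Of the 30 called chaperone genes 26 kept their call throughout, 22 lower and 4 higher. Pfdn2 was not called without the variance trend (-0.24, adjusted p = 0.0649) or without irf4-/- replicate 2 or 4 or irf4+/+ replicate 1 or 4 (-0.24 to -0.18 over these, adjusted p = 0.0543 to 0.0760), Hspa4 (-0.10) and Dnaja1 (-0.10) with the mean of probe sets, and Dnajc2 (-0.11) without the shared probe sets. Hspa8 was called lower with the mean of probe sets (-0.22). The cause of these changes was not tested. Signs turned only for genes that were not called: with array medians centred for St13 (-0.00660) and Trap1 (-0.0289), with quantile normalization for Dnajb1 (0.000104), with array weights for Dnajb1 (0.00755) and Bag3 (0.00326), with the mean of probe sets for Trap1 (-0.0175), and without shared probe sets for Hspe1 (0.0382). With arrays left out, Dnajb1 ran from -0.0425 to 0.0521, Bag3 from -0.0860 to 0.0356 and Trap1 from -0.0258 to 0.0408. With the filter at the 60th percentile 36 genes were tested, without Bag3. The median log2 fold change of all genes was 0.00 in the main setting, -0.03 with array medians centred and -0.04 with quantile normalization.

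Samples of the same replicate number did not deviate together (correlations of -0.04 to 0.05 over the 5 numbers), so the numbers were not taken as pairs. With the replicate number as a block, 26 chaperone genes were called lower and 4 higher, 33 and 20 of the other chaperone genes, and 5716 genes in all, and no chaperone gene changed its call. The array sets no depth, and dim probe sets near the floor, such as that of Bag3, limit what can be measured.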
